A study of Homo sapiens with 8 samples.

Results

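The long arm of chromosome 22 was described from 17 Mb to the chromosome end (hg19 chr22:17000001-51304566), cut into 687 regions of 50 kb out of the 61927 that tile hg19. The arm was chosen by its extra covered length after trichostatin A, so every value of that contrast is a description of the choice and not a finding about it. ChIP-seq for H3K9me3 was done on PC9, a human lung adenocarcinoma cell line with a mutant EGFR, in 3 states with 1 library each. The DTP + TSA library came from drug-tolerant persisters, the cells that outlive 8 days in 1 µM erlotinib, which then received 50 nM trichostatin A (TSA) for 5 hours. The DTP library came from persisters after the same 8 days in 1 µM erlotinib without TSA. The parental library came from untreated PC9 cells. All 3 states are the same line, and with 1 library each no replicate check and no test was possible. Libraries for H3K4me3 and for input chromatin (2 and 3 samples) were not analysed here. The arm held 846 of the 53000 H3K9me3 intervals of DTP + TSA, 492 of the 47866 of DTP and 251 of the 23842 of parental cells.

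Trimethylation of histone H3 on lysine 9 is the mark that HP1 proteins read in constitutive heterochromatin, and it lies over satellites, transposable elements, clusters of zinc finger genes and the ends of chromosomes. Erlotinib blocks the kinase of the epidermal growth factor receptor, on which PC9 cells depend. TSA inhibits the zinc-dependent histone deacetylases, so it acts on acetylation and not directly on methylation. Chromosome 22 is acrocentric: its short arm carries ribosomal DNA and satellites, and almost all of its coding genes are on the long arm, which is rich in genes and in GC.

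The lists gave positions and 2 signal values per interval, with no read depth, so the precision of a covered length is unknown. Per interval the value used was the authors' mean signal over its bins, written Avg Val in the lists, whose scaling between libraries is not given in the sources used here. Signal was therefore read within a library, as the percentile of an interval among all intervals of its own list. The lists differed over hg19 as a whole: 5.79%, 5.32% and 4.05% of the genome was covered in DTP + TSA, DTP and parental cells, and the median interval measured 2400, 2400 and 3800 bp. Whether depth or calling differed between the libraries was not tested. The copy number of 22q in PC9 cells was not tested either. No genome of the build of the lists was at hand, so no sequence is shown and no interval was placed in a gene; genes are named only as residents of a cytoband.

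In DTP + TSA cells 11.8% of the arm was covered (4037.2 kb), against 5.46% in DTP cells (1873.8 kb) and 3.96% in parental cells (1358.2 kb). DTP + TSA cover was 2.15 times that of DTP and 2.97 times that of parental cells, and DTP cover was 1.38 times that of parental cells. With the same number of intervals from each library, the strongest by Avg Val, these ratios were 1.87, 1.46 and 0.781, and DTP cover was then below parental cover. Outside 22q the covered shares were 5.72% in DTP + TSA, 5.32% in DTP and 4.05% in parental cells, with ratios of 1.07 for DTP + TSA over DTP, 1.41 for DTP + TSA over parental and 1.31 for DTP over parental. The long arm of chromosome 22 makes up 1.11% of hg19 but held 2.16 Mb of the 14.3 Mb by which DTP + TSA cover exceeded DTP cover, which is 15.1%. Among 41 chromosome arms it had the highest ratio of DTP + TSA over DTP, followed by 20q at 1.82, 17q at 1.69, 17p at 1.64 and 16q at 1.56, and the median arm stood at 1.09. For DTP over parental 22q ranked 21 of 41 and sat at the median of 1.38. The arm with the highest ratio under TSA was thus in the middle of the arms for DTP over parental. That contrast did not choose the arm, but its numerator is the same DTP library that is the denominator of the choosing ratio. The 2 ranks are therefore not independent.

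Region by region, 174 of the 687 regions were covered at least 2 times more, and by at least 5 percentage points, in DTP + TSA than in DTP cells; that is 25.3% of them, beside 6.90% of all regions of hg19. The reverse was seen in 12 regions (1.75%), beside 5.76% of hg19. Just inside the limit lay a region with 7.6% against 2.4% cover and just outside it one with 6.4% against 1.6%. Without a size limit, DTP + TSA cover was above DTP cover in 365 regions, below it in 109 and equal in 213, of which 204 had none in either library. These counts without a size limit were not taken over hg19, so they do not show what is particular to 22q. For DTP against parental cells 122 regions were higher (17.8%, beside 17.7% of hg19) and 53 were lower (7.71%, beside 6.90%). Both shares lay near the background, so by this count persisters and untreated cells differed on 22q about as much as elsewhere. For DTP + TSA against parental cells 238 regions were higher (34.6%, beside 18.1%) and 31 were lower (4.51%, beside 7.30%).

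The median 50-kb region was covered to 4.8% in DTP + TSA and to 0% in both DTP and parental cells. Regions with no interval at all numbered 228 in DTP + TSA, 357 in DTP and 478 in parental cells, and 188 were empty in all 3 libraries. Regions covered to at least 50% numbered 43 in DTP + TSA, 4 in DTP and 3 in parental cells. The fullest region was covered to 98.4% in DTP + TSA, 63.2% in DTP and 56% in parental cells, and none was full. Another 160 regions carried cover in all 3 libraries, 146 in DTP + TSA and DTP but not in parental cells, and 127 in DTP + TSA alone. DTP alone covered 17 regions and parental alone 16. None of these counts of regions was taken over the rest of hg19, so they describe the arm only. Across the 687 regions the covered shares of DTP + TSA and DTP correlated with Pearson's r of 0.73 and Spearman's rho of 0.69, those of DTP and parental cells with 0.57 and 0.52, and those of DTP + TSA and parental cells with 0.44 and 0.44. These points are neighbours on 1 chromosome and share sequence composition and library, so the coefficients only describe the profiles.

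The profile along the arm was low and level over most of its length and climbed toward the chromosome end. In 5-Mb steps outward from 17 Mb, the DTP + TSA shares were 4.33%, 7.09%, 4.67%, 5.60%, 8.95%, 14.9% and 40.9%, the last being the outer step from 47 Mb to the end. The DTP shares of the same steps were 2.78%, 3.25%, 3.82%, 3.94%, 4.25%, 7.44% and 13.9%, and the parental shares were 1.42%, 1.62%, 2.36%, 4.82%, 3.90%, 5.00% and 9.35%. All 3 libraries were thus fullest in the outer step, and the order DTP + TSA, DTP, parental held in every step but that from 32 to 37 Mb, where parental cover exceeded DTP cover. DTP + TSA over DTP was 1.56, 2.18, 1.22, 1.42, 2.11, 2.00 and 2.94 along the 7 steps, above 1 in each. DTP over parental was 1.96, 2.00, 1.62, 0.817, 1.09, 1.49 and 1.49. The outer step held 53.7% of the length by which DTP + TSA exceeded DTP, and the step inside it 17.2%. Regions higher in DTP + TSA than in DTP numbered 16, 21, 11, 12, 25 and 36 of 100 in the inner steps and 53 of 87 in the outer one.

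**Figure D1:**
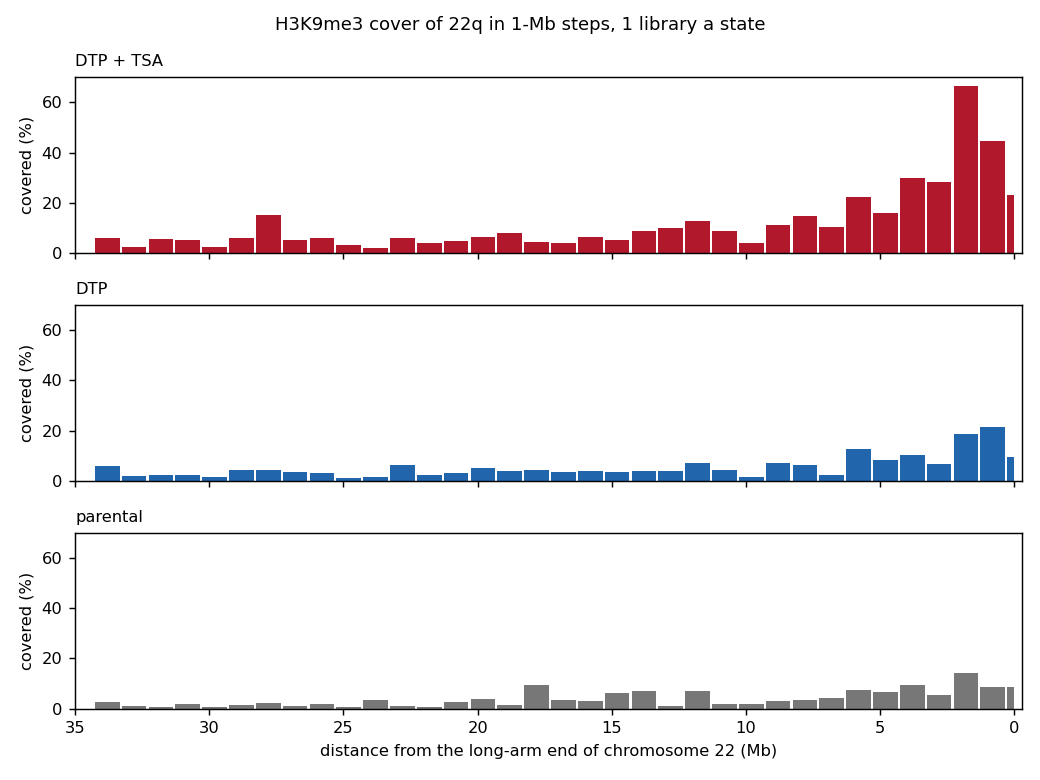
Covered share (%) of 22q in 1-Mb steps against the distance from the long-arm end (Mb), for DTP + TSA (top), DTP (middle) and parental cells (bottom), 1 library each on the same scale. The step from 49 to 50 Mb reached 66.4% in DTP + TSA, against 18.7% in DTP and 14.3% in parental cells.

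In 1-Mb steps the highest cover of DTP + TSA lay not at the very end but from 49 to 50 Mb, with 66.4%, against 18.7% in DTP and 14.3% in parental cells. The next step outward, from 50 to 51 Mb, had 44.8% in DTP + TSA, 21.3% in DTP and 8.52% in parental cells. The remaining 0.305 Mb at the end had 23.2% in DTP + TSA, 9.72% in DTP and 8.47% in parental cells. The largest ratio of DTP + TSA over DTP in a 1-Mb step, 4.23, came from 48 to 49 Mb, where the shares were 28.1% in DTP + TSA, 6.66% in DTP and 5.58% in parental cells. A separate peak of the profile lay in the inner arm from 23 to 24 Mb, across 22q11.22 and 22q11.23, with 15.1% in DTP + TSA, 4.22% in DTP and 2.46% in parental cells, a ratio of 3.57 over DTP. The step from 33 to 34 Mb stood out the other way: it had 4.28% in DTP + TSA and 4.34% in DTP, against 9.62% in parental cells.

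The start of the extra cover under TSA was placed by the border that best splits the 687 per-region differences into 2 levels. It fell at 47.5 Mb, 3.80 Mb from the end. Distal of it, 44.1% was covered in DTP + TSA, 15.1% in DTP and 9.48% in parental cells, and 50 of 77 regions were higher in DTP + TSA than in DTP with 0 lower. Proximal of it the shares were 7.73% in DTP + TSA, 4.26% in DTP and 3.27% in parental cells, with 124 of 610 regions higher and 12 lower. The distal stretch is 11.1% of the arm and held 51.1% of the length by which DTP + TSA exceeded DTP. The extra cover did not begin at that border: the proximal 30.5 Mb still had a ratio of 1.81. Splitting each side again gave a border at 43.6 Mb, 7.70 Mb from the end, and one at 50.15 Mb, 1.15 Mb from the end. From 43.6 to 47.5 Mb the shares were 17.4% in DTP + TSA, 7.58% in DTP and 6.22% in parental cells, and proximal of 43.6 Mb they were 6.31% in DTP + TSA, 3.78% in DTP and 2.84% in parental cells. The ratio of DTP + TSA over DTP was therefore 1.67 in the inner arm, 2.30 from 43.6 to 47.5 Mb, 3.28 from 47.5 to 50.15 Mb and 2.15 beyond. In the last stretch DTP + TSA covered 33.4%, DTP 15.5% and parental cells 7.92%.

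**Figure D2:**
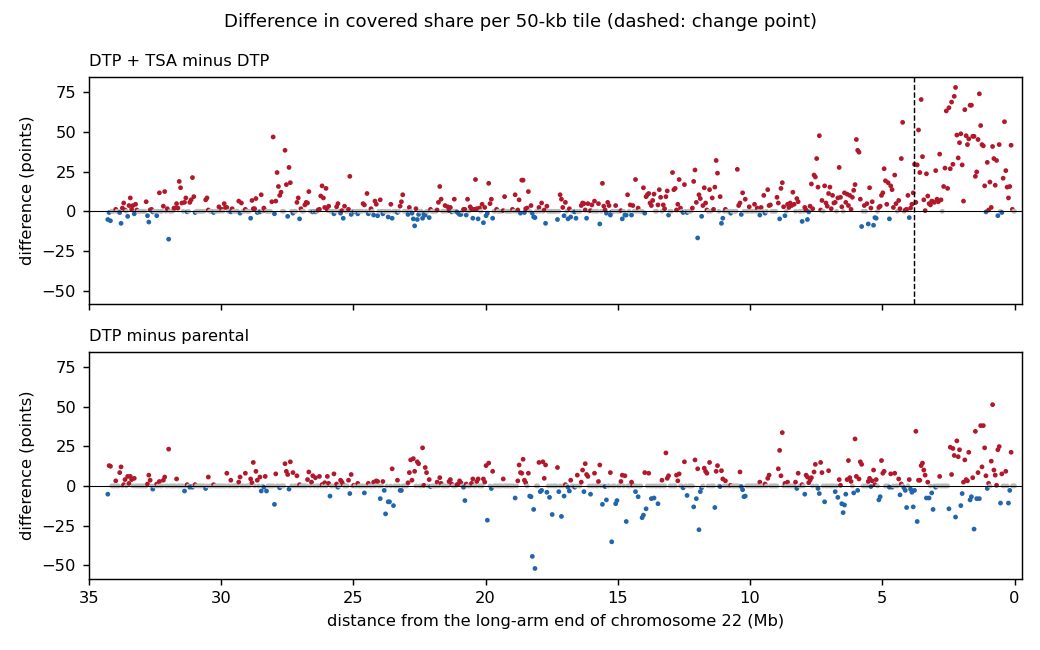
Difference in covered share (percentage points) of each of the 687 regions of 50 kb against the distance from the long-arm end (Mb), DTP + TSA minus DTP above and DTP minus parental below; red points are above 0, blue below and grey at 0, and the dashed line marks the border 3.80 Mb from the end. Differences under TSA reached 78 points distal of that border and went no lower than -17.6 anywhere on the arm.

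The longest unbroken run of regions with more cover in DTP + TSA than in DTP was 32 regions, chr22:48600001-50200000, covered to 64.1% in DTP + TSA, 19.9% in DTP and 12.3% in parental cells. The 5 regions with the largest difference all lay distal of 47.5 Mb. At chr22:49050001-49100000, 94% was covered in DTP + TSA, against 16% in DTP and 35.6% in parental cells. At chr22:49950001-50000000 the shares were 84.8% in DTP + TSA, 10.8% in DTP and 18.8% in parental cells. At chr22:49000001-49050000 they were 98.4% in DTP + TSA, 26% in DTP and 6.8% in parental cells. At chr22:47750001-47800000 they were 83.2% in DTP + TSA, 12.8% in DTP and 0% in parental cells, and at chr22:48900001-48950000 they were 90.8% in DTP + TSA, 22% in DTP and 14.8% in parental cells. In the first 2 of these, DTP cover was below parental cover, while in the other 3 it was above. The 5 regions that were lowest in DTP + TSA against DTP were spread over the arm and differed less. They were chr22:19300001-19350000 with 15.2% against 32.8%, chr22:39300001-39350000 with 4% against 20.8%, and 3 more with differences between -8.8 and -9.6 points.

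By cytoband, DTP + TSA cover was highest in the 2 bands at the end, which differ in stain. Band 22q13.32, dark in Giemsa stain, had 49.4% in DTP + TSA, 13.4% in DTP and 8.36% in parental cells, with 17 of its 20 regions higher in DTP + TSA than in DTP. The light end band 22q13.33 had 48.6% in DTP + TSA, 18.6% in DTP and 10.8% in parental cells, with 22 of 39 regions higher. Band 22q13.31 had 19.2% in DTP + TSA, 8.19% in DTP and 7.0% in parental cells. Inward of these, 22q13.1 had 10.3% in DTP + TSA and 4.97% in DTP cells, and 22q13.2 had 9.99% and 4.86%. In 22q11.1, next to the centromere, DTP + TSA cover (6.36%) was below DTP cover (6.49%), and this was so in no other band of the arm. Band 22q12.3 was the only one with less cover in DTP (4.17%) than in parental cells (5.46%), and DTP + TSA stood at 6.13% there.

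The bands at the end are unlike in genes. RefSeq genes, taken from their bands in GRCh38 by name, put 22.1 coding genes per Mb in 22q13.33 and 1.00 per Mb in 22q13.32, whose only coding gene is TAFA5, for a small secreted protein of the brain. The 2 bands had 48.6% and 49.4% cover in DTP + TSA. Residents of 22q13.33 include SHANK3, a scaffold protein of excitatory synapses, HDAC10, a polyamine deacetylase of the zinc-dependent deacetylase family, BRD1, a bromodomain protein of histone acetyltransferase complexes, TYMP, a thymidine phosphorylase, and MAPK11 and MAPK12 of the p38 kinases. Residents of 22q13.31 include WNT7B, a Wnt ligand, and PPARA, a nuclear receptor of fatty acid oxidation. Other well-known groups lie further in. All 20 listed genes of the 22q11.2 deletion region, among them TBX1, a T-box factor of the pharyngeal arches, are in 22q11.21, with 3.81% in DTP + TSA, 1.94% in DTP and 1.01% in parental cells. The 7 APOBEC3 genes, cytidine deaminases that restrict retroelements and viruses, are in 22q13.1, the band with the highest DTP + TSA cover inward of 22q13.31, and the 6 APOL genes are in 22q12.3. The tumour suppressors SMARCB1, NF2 and CHEK2 are in 22q11.23, 22q12.2 and 22q12.1, with 8.71%, 4.92% and 3.87% in DTP + TSA and 4.18%, 3.42% and 3.14% in DTP cells. These are values of whole bands, and the cover of the genes themselves was not measured.

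Bands were also grouped by gene density and set beside bands of other chromosomes. The 2 bands of 22q with at least 20 coding genes per Mb had 24.1% in DTP + TSA and 9.85% in DTP cells, a ratio of 2.44, against 14.4% in DTP + TSA and 9.69% in DTP cells over 47 bands elsewhere, a ratio of 1.48. The 4 bands with 10 to 20 genes per Mb had less cover than those elsewhere in both libraries: 6.56% in DTP + TSA and 3.42% in DTP cells, against 8.81% in DTP + TSA and 6.03% in DTP cells over 120 bands. Their ratio was still higher, at 1.92 on 22q and 1.46 elsewhere. With 5 to 10 genes per Mb, 4 bands of 22q had 9.51% in DTP + TSA and 5.00% in DTP cells, a ratio of 1.90, against 6.63% in DTP + TSA and 6.24% in DTP cells over 233 bands, a ratio of 1.06. Below 5 genes per Mb, the 2 bands 22q11.1 and 22q13.32 had 29.0% in DTP + TSA and 10.1% in DTP cells, a ratio of 2.86, against 3.84% in DTP + TSA and 4.47% in DTP cells over 398 bands, a ratio of 0.858. The 2 bands of 22q below 5 genes per Mb differed: the ratio was 0.979 in 22q11.1 and 3.68 in 22q13.32. Other classes were mixed in level too. With at least 20 genes per Mb, 22q13.1 had 10.3% in DTP + TSA and 4.97% in DTP, below the bands elsewhere. Band 22q13.33 of that class had 48.6% and 18.6%. With 5 to 10, 22q12.1 (3.87%) and 22q12.3 (6.13%) lay below the 6.63% elsewhere in DTP + TSA. Bands 22q11.22 (8.29%) and 22q13.31 (19.2%) lay above it. The pooled ratio of DTP + TSA over DTP was thus higher on 22q in each class, while the level of cover was not. This ratio is also the one by which the arm was chosen. The classes were not matched for distance from the chromosome end. For 22q11.1 the gene density is that of the whole band in GRCh38, while its cover was taken from 17 to 17.9 Mb only. The class of that piece is therefore uncertain.

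The added length came from intervals in new places and from DTP intervals that were longer. Of the 846 DTP + TSA intervals on 22q, 448 overlapped no DTP interval (53.0%, exact 95% interval 49.5 to 56.4, counting error only), against 33.4% in the rest of hg19 (33.0 to 33.8). The other 398 overlapped DTP, 276 of them reached beyond it, and 14 spanned 34 DTP intervals between them. Conversely, 85 of the 492 DTP intervals of 22q overlapped nothing in DTP + TSA (17.3%, 14.04 to 20.9), against 28.5% in the rest of hg19 (28.1 to 28.9). Read as overlap, 47.0% of DTP + TSA intervals met a DTP interval and 82.7% of DTP intervals met a DTP + TSA interval. In length, 2526.6 kb of DTP + TSA cover lay outside DTP intervals, 1708.8 kb in intervals without overlap and 817.8 kb added to overlapping ones. The share in intervals without overlap was 67.6%, against 67.3% in the rest of hg19. By this measure the make-up of the added length on 22q was close to that of the rest of hg19. In the other direction 363 kb of DTP cover lay outside DTP + TSA intervals. Of this, 176.6 kb was in DTP intervals without overlap and 186.4 kb in overlapping ones, 211 of 407 of which reached beyond DTP + TSA.

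**Figure D3:**
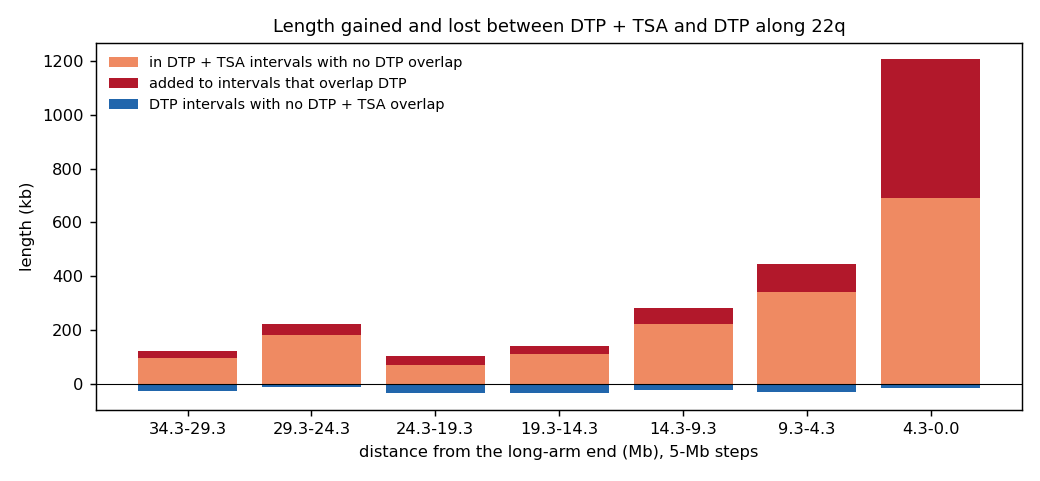
Length (kb) in DTP + TSA outside DTP intervals for each 5-Mb step of 22q, ordered by distance from the long-arm end (Mb), in intervals with no DTP overlap (orange) and added to intervals that overlap DTP (dark red); blue bars below 0 give DTP intervals with no DTP + TSA overlap. In the outer step 690.8 kb lay in intervals without overlap and 515.6 kb was added to overlapping ones. Not drawn is the DTP length outside DTP + TSA in overlapping intervals, 186.4 kb over the arm.

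Along the arm the make-up was uneven. In the outer step 690.8 kb lay in intervals without DTP overlap and 515.6 kb was added to overlapping ones, so the first kind made 57.3% of the total, against 77.1% over the inner steps together. The share of intervals without overlap was alike in both: it was 111 of 198 in the outer step (56.1%, 48.8 to 63.1) and 337 of 648 inward (52.0%, 48.1 to 55.9). The overlapping intervals differed more, with a median of 3400 bp added in the outer step and 400 bp inward. Outer overlapping intervals had a median length of 9200 bp, against 3200 bp inward, and 23 of 87 were over 16 kb long, against 3 of 311 inward. The outer intervals without overlap were longer as well, with a median of 4400 bp, against 2400 bp inward. Other long arms had the same tilt in the outer stretch of equal length: 63.6% of the added length was in intervals without overlap there, against 69.0% further in, with a median of 800 bp added to overlapping intervals. The outer share was 62.0% on 20q, against 78.1% inward, and 61.8% on 16q, against 77.8% inward, while on 17q it was 78.8%, against 81.1% inward. By number, 49.1% of the outer intervals of the other long arms had no DTP overlap, against 31.1% inward, a wider gap than on 22q.

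Intervals without DTP overlap had lower signal than those with it. Their median Avg Val in DTP + TSA was 9.98, at percentile 40.0 of that library, against 13.9, at percentile 67.4, for overlapping intervals. They were not mainly neighbours of DTP intervals: the median distance to the nearest one was 19.5 kb, and 72 of 448 lay within 5 kb (16.1%, 12.8 to 19.8), against 19.5% in the rest of hg19 (19.0 to 20.1). The longest was chr22:47041601-47078000 in 22q13.31, 36.4 kb with an Avg Val of 10.97, and neither DTP nor parental cells had any cover within it. The next were chr22:50892001-50915400 in 22q13.33, 23.4 kb, and chr22:47782801-47803000 in 22q13.31, 20.2 kb, both also free of DTP and parental cover. All 3 had middling signal, at percentiles 48.7, 37.9 and 64.2 of their library.

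The 3 DTP + TSA intervals with most length added to DTP lay together in 22q13.32. The interval chr22:49013801-49052000 (38.2 kb) held a single DTP interval of 5.6 kb, chr22:49014801-49020400, and so added 32.6 kb. The interval chr22:49077601-49118800 (41.2 kb, the longest of the arm) took in 3 DTP intervals of 2.2, 5 and 3.4 kb and added 30.6 kb. It also held 1 parental interval of 8.6 kb that met no DTP interval. The interval chr22:48907401-48948000 (40.6 kb) took in DTP intervals of 4 and 7 kb and added 29.6 kb, and its parental interval, chr22:48937201-48944600, shared its start with the second of these. DTP signal in these small parts was ordinary, with percentiles from 16.3 to 61.1.

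Where 1 DTP + TSA interval matched 1 DTP interval and no other, the summits lay close together. Of 363 such pairs the DTP + TSA interval was longer in 211, shorter in 126 and equal in 26, with median lengths of 3600 bp in DTP + TSA and 3400 bp in DTP. The summit of the DTP + TSA interval fell inside the DTP interval in 353 pairs (97.2%, 95.0 to 98.7), and the median shift between summits was 112 bp. These pairs leave out every interval that met several of the other library. A summit inside is likely where intervals were paired by overlap and are alike in length. No expected share was computed, so the 97.2% is only a description.

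Intervals of the arm were more numerous in DTP + TSA. There were 24.7 per Mb in DTP + TSA, 14.3 in DTP and 7.32 in parental cells, with median lengths of 3200, 3000 and 4600 bp. In the rest of hg19 the median lengths were 2400, 2400 and 3800 bp, shorter in each library. Median Avg Val was 11.04 in DTP + TSA, 10.5 in DTP and 10.2 in parental cells, at median percentiles of 49.2, 51.5 and 71.6. The DTP + TSA and DTP intervals of 22q thus had the signal of their libraries at large, while the parental ones ranked above theirs. In the outer step the median percentiles were 58.4 in DTP + TSA, 58.0 in DTP and 85.5 in parental cells. Median lengths there were 6400 bp in DTP + TSA, 4600 bp in DTP and 6400 bp in parental cells.

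Long intervals on 22q were mostly found in DTP + TSA. Intervals over 16 kb numbered 33 in DTP + TSA (3.90%, 2.70 to 5.43), 2 in DTP (0.407%, 0.0493 to 1.46) and 5 in parental cells (1.99%, 0.650 to 4.59), and made up 19.9%, 2.41% and 7.30% of the length covered on the arm. In the rest of hg19 they made up 9.29% in DTP + TSA, 7.47% in DTP and 18.4% in parental cells. Intervals within 5 kb of each other were also joined into stretches, of which 6 in DTP + TSA, 0 in DTP and 1 in parental cells reached 50 kb. The longest stretch was 248.4 kb in DTP + TSA, 31.6 kb in DTP and 53.4 kb in parental cells. The median gap between intervals was 15.8 kb in DTP + TSA, 35.4 kb in DTP and 65.3 kb in parental cells.

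All 6 long stretches of DTP + TSA lay in 22q13.32 and 22q13.33, with distal edges between 0.772 and 2.19 Mb from the end. The longest, chr22:48870401-49118800, was covered to 92.4% by 13 intervals in DTP + TSA, against 33.9% by 15 intervals in DTP and 19.6% by 7 in parental cells. DTP + TSA and DTP thus had similar numbers of intervals there, and the DTP + TSA intervals covered more. In chr22:49897601-50069200, 171.6 kb long, 14 intervals covered 84.6% in DTP + TSA, 8 covered 26.6% in DTP and 3 covered 14.3% in parental cells. In chr22:50076601-50171400, 94.8 kb long, the shares were 89.7% in DTP + TSA, 50.6% in DTP and 16.03% in parental cells, and in chr22:50446801-50532400, 85.6 kb long, they were 91.6% in DTP + TSA, 44.6% in DTP and 8.88% in parental cells. In chr22:49531801-49615400, 83.6 kb long, they were 89.7% in DTP + TSA, 28.5% in DTP and 18.4% in parental cells. The shortest, chr22:49649601-49704600, 55 kb long, had 84% in DTP + TSA and 14.2% in DTP, below the 20.4% of parental cells.

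**Figure D4:**
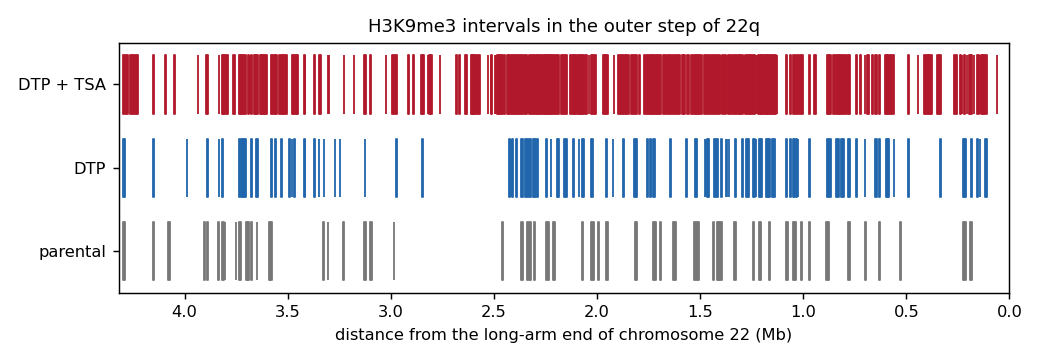
Positions of the H3K9me3 intervals in the outer step of 22q against the distance from the long-arm end (Mb), with 198 intervals in DTP + TSA (top row), 103 in DTP (middle) and 57 in parental cells (bottom). From 2.505 to 1.15 Mb from the end, cover was 70.1% in DTP + TSA, 22.6% in DTP and 14.6% in parental cells.

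Some of the arm had less cover in persisters than in untreated cells. The clearest case lay in 22q12.3, the band of the APOL genes, whose first member encodes a serum protein that kills trypanosomes. The longest joined parental stretch, chr22:33066601-33120000 (53.4 kb), was covered to 17.2% in DTP + TSA and 19.9% in DTP, against 75.7% in parental cells. The region chr22:33150001-33200000 had 0% in DTP + TSA and 4% in DTP, against 56% in parental cells, the largest shortfall of DTP on the arm. Within it, the parental interval chr22:33156401-33172800 (16.4 kb) met no interval in either persister library, but its signal was low, at percentile 27.4 of the parental list. The region chr22:36050001-36100000 had 19.2% in DTP + TSA and 19.6% in DTP, against 54.8% in parental cells, and holds the longest parental interval of the arm, chr22:36051601-36078600 (27 kb).

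Persisters also had intervals that parental cells lacked. Of 492 DTP intervals 305 met no parental interval (62.0%, 57.5 to 66.3), against 65.8% in the rest of hg19 (65.4 to 66.3). Of 251 parental intervals 78 met no DTP interval (31.1%, 25.4 to 37.2), against 35.9% in the rest of hg19 (35.3 to 36.5). The longest DTP intervals without parental overlap were chr22:50463801-50478600, chr22:50028401-50042800 and chr22:50489201-50503200, all in 22q13.33 and 14.8, 14.4 and 14 kb long. In DTP + TSA their positions were covered to 91.9%, 100% and 100%. The region with the largest excess of DTP over parental cover, chr22:50450001-50500000, had 92% in DTP + TSA and 51.2% in DTP, against 0% in parental cells. The outer arm thus already had DTP cover where parental cells had none, but DTP over parental was 1.49 in the outer step, the same as in the step inside it.

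Summed over the arm, 627.6 kb was covered in all 3 libraries, 883.2 kb in DTP + TSA and DTP, 198.2 kb in DTP + TSA and parental cells and 86.6 kb in DTP and parental cells. DTP + TSA alone covered 2328.2 kb, which is 57.7% of its cover on 22q, DTP alone 276.4 kb and parental cells alone 445.8 kb. In the outer step 62.9% of DTP + TSA cover was in that library alone, and 92.6% of DTP cover was also covered in DTP + TSA. In the step from 27 to 32 Mb 39.9% of DTP + TSA cover was in that library alone, the lowest share of the 7 steps. Cover in DTP + TSA alone was not computed for the rest of hg19. Length outside DTP intervals, whether parental or not, was 2526.6 of the 4037.6 kb of DTP + TSA intervals on 22q. In the rest of hg19 it was 62949 of 175102 kb. This is again the contrast that chose the arm.

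The 2 intervals of highest signal in both DTP + TSA and DTP were short, lay in 22q11.21 and had parental counterparts. The interval chr22:18883601-18884200 of DTP + TSA had an Avg Val of 251.6, its DTP counterpart 287.04 and its parental counterpart 187.3. At chr22:18717601-18718400 the values were 195.9 in DTP + TSA, 210.5 in DTP and 285.36 in parental cells. All of these ranked above percentile 99.7 of their libraries and measured 1.6 kb or less. Band 22q11.21 carries long low-copy repeats, and how reads with several matches were placed is not given in the sources used here. Exceptions to the sharing lay near the end of the arm. The parental interval chr22:50293001-50298000 in 22q13.33 had an Avg Val of 197.0 (percentile 99.8) but no DTP interval met it. In DTP + TSA it fell within chr22:50287601-50301800, with an Avg Val of 13.2 (percentile 63.9). Another parental interval, 5.4 kb long and 0.530 to 0.524 Mb from the end, had an Avg Val of 147.5. Its region, chr22:50750001-50800000, had 0% cover in DTP + TSA and in DTP, against 10.8% in parental cells.

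Pooled over the other 22 long arms, cover was higher in the outer 2 Mb than in any class further in, in all 3 libraries, though not on every arm, so 22q was set beside them at equal distance from the end. In the outer 2 Mb, 22q had 47.5% in DTP + TSA, 18.0% in DTP and 10.6% in parental cells, against 26.1% in DTP + TSA, 15.5% in DTP and 10.7% in parental cells over the other arms pooled. DTP + TSA over DTP was 2.64 on 22q and 1.69 on the others, and no other arm was higher, the next being 11q at 2.61. From 2 to 5 Mb it was 3.27 on 22q and 2.21 on the others, with 3 arms above 22q, led by 17q at 5.08. From 5 to 10 Mb it was 1.94 and 1.39, with 4 arms above. From 10 to 15 Mb it was 2.03 and 1.15, and from 25 to 30 Mb 2.12 and 0.912, with no arm above 22q in either class. From 15 to 20 Mb it was 1.38 and 1.08, and from 20 to 25 Mb 1.25 and 1.05, with 4 and 5 arms above. The ratio on 22q was above that of the pooled other arms in every class. These are parts of the ratio by which the arm was chosen, so high values follow in part from that choice. DTP over parental in the outer 2 Mb was 1.69 on 22q and 1.45 on the others.

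**Figure D5:**
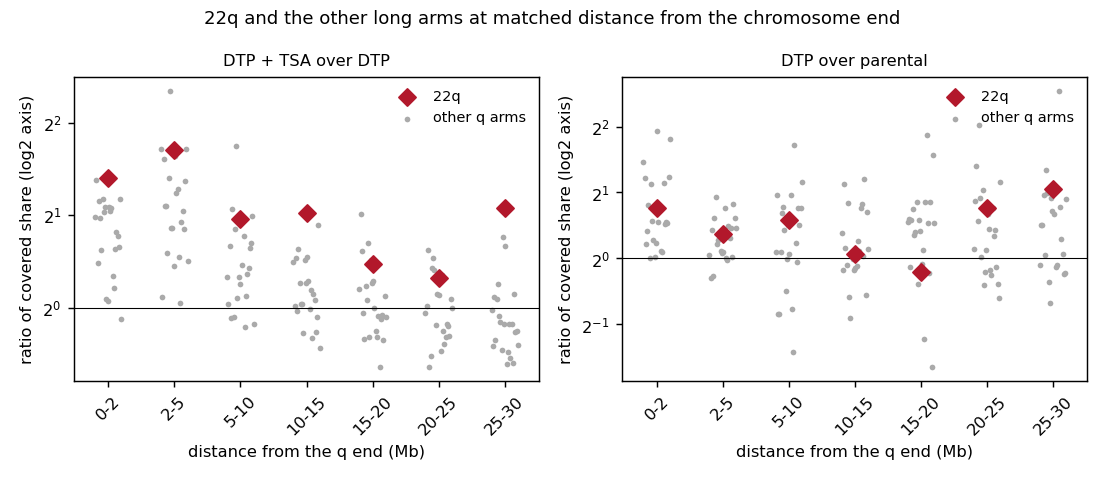
Ratio of covered share (log2 axis) in classes of distance from the long-arm end (Mb) for 22q (red diamonds) and the other 22 long arms (grey points), DTP + TSA over DTP on the left and DTP over parental on the right. On the left 22q lies above all other arms from 0 to 2, 10 to 15 and 25 to 30 Mb, at 2.64, 2.03 and 2.12.

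Because the parental list is shorter than the others, cover was also taken from the 23842 strongest intervals of each library. Ranked by Avg Val, 22q then had 1986.8 kb in DTP + TSA, 1060.4 kb in DTP and 1358.2 kb in parental cells. DTP + TSA over DTP was 1.87 on 22q, against 0.953 in the rest of hg19, and DTP over parental was 0.781, against 0.707. Ranked by summit value the ratios on 22q were 1.96 and 1.05, against 0.990 and 0.831 in the rest of hg19. The direction of DTP + TSA against DTP was kept under both rankings, and that of DTP against parental was not.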

How the data were processed

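The authors deposited, per H3K9me3 library, a list of intervals in hg19 with the position, the summit, a summit value, a mean signal (Avg Val) and a bin count, per the file headers. BWA, SICER, hg19 and dm3 are named per the submitters' processing notes, without roles. Not given in the sources used here are the threshold, the scaling and any use of input. The intervals lie on a 200-bp grid in 100% of cases, at 32 bp a bin in the median. Depth is unknown.

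Each library's cover was summed in 50-kb regions with Python 3.11.15, numpy 2.4.6 and pandas 2.3.3. A region was called higher or lower at 2 times and 5 percentage points. An interval belonged to the arm if it overlapped it, and kept its whole length; 17, 11 and 9 intervals before 17 Mb (DTP + TSA, DTP and parental) were left out. Overlap needed 1 bp. Shares of intervals carry exact Clopper-Pearson limits at 95% (scipy 1.17.1), for counting error only. Bands came from circlize 0.4.16 under R 4.3.3, and all 104 listed genes were placed by band name from GRCh38. The functions returned the known answer in 11 of 11 checks on simulated intervals.

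With 1 library a state there was no test. The arm, its regions and the gene lists were chosen with earlier results of these data known. Named are, by rank, 3 intervals of each kind (longest, strongest, most lengthened, unmatched) and 5 regions each way. The alternatives were other joins, signal or length limits, equal list lengths, arm extents, region sizes and overlap rules.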

Additional observations from a re-analysis of the deposited data

How the results depend on the processing

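Joining intervals within 5 kb gave 1.45 for DTP over parental, 3.19 for DTP + TSA over parental and 46.1% for the share of added length in intervals without DTP overlap. Keeping only intervals above their library's median Avg Val gave 2.08 for DTP + TSA over DTP and 1.02 for DTP over parental. For DTP + TSA over parental it gave 2.12. The higher regions then numbered 90 (13.1% of the arm, beside 4.30% of all regions of hg19 under the same setting). The start was at 48.8 Mb, and 65.2% of the added length lay in intervals without overlap. Equal numbers by mean signal gave 1.87, 0.781 (the only change of direction) and 1.46 for the same ratios. This setting gave 76 regions (11.1%, hg19 3.59%), 48.8 Mb and 60.6%. Equal numbers by summit gave 1.96, 1.05 and 2.07, 111 regions (16.2%, hg19 4.66%), 48.8 Mb and 60.7%. Leaving out intervals below the pooled median of 2600 bp gave 2.27, 1.23 and 2.79, and 70.7%. Without the outer 5 Mb the ratios were 1.76, 1.33 and 2.33, with 113 of 586 regions (19.3%, hg19 6.90%) and 76.5%. Without the part up to 26 Mb they were 2.21, 1.30 and 2.88, with 139 of 507 regions (27.4%, hg19 6.90%) and 65.8%. Regions of 25 kb gave 329 higher of 1373 (24.0%, hg19 7.75%) and regions of 100 kb gave 96 of 344 (27.9%, hg19 5.93%). A limit of 10 points gave 120 of 687 (17.5%, hg19 3.65%). The start read from 1-Mb steps, as the border beyond which DTP + TSA exceeded DTP in every full step, was 34 Mb. Counting intervals within 5 kb of DTP as overlapping left 54.3% without overlap. Of 48 alternatives 37 moved a value beyond its counting interval, by a region or more (the start) or by over 1.5 times (counts). Of the others, 1 turned its direction and 10 stayed within these limits. The cause was not tested. The counting interval took 200-bp bins as independent, which neighbouring bins are not, so it is too narrow. Counts were compared raw, so regions of 25 and 100 kb counted as moved at 24.0% and 27.9%, beside 25.3% at 50 kb. The number 37 depends on these rules. DTP + TSA over DTP stayed between 1.76 and 2.27. Depth is unknown, so no cover of 0 could be given a limit. No paired analysis was possible because each state had 1 library.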
